A study of Mus musculus with 15 samples.

Results

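Nucleosome positioning was examined at the promoters of 38 Hox genes of the mouse HoxA, HoxB, HoxC and HoxD clusters. Members were found by matching the transcript identifier of each annotated transcription start site (TSS) to its gene symbol, without use of any measured value. They make up 40 of 25881 promoters, since Hoxa10 and Hoxb3 are each annotated with 2 start sites. HoxA and HoxB hold 11 promoters each, and HoxC and HoxD hold 9 each. The annotation gives every promoter a score, the mean number of H3K4me1 fragments found close to the TSS in non-stimulated DCs and fibroblasts. A score above 100 was reached by 31 of the 40 Hox promoters (77.5%) and by 13559 of all promoters (52.4%), and only these were tested. Hoxd10, with a score of 102, lay just inside this limit and Hoxc8, with 78.75, just outside. The other 8 promoters outside it were those of Hoxa13, Hoxb1, Hoxb13, Hoxc4, Hoxc12, Hoxc13, Hoxd1 and Hoxd11.

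The data were obtained by ChIP-MNase, in which an antibody first captures chromatin pieces of several kilobases and micrococcal nuclease then cuts them on the beads, so that the sequenced fragments mark single nucleosomes. H3K4me1, the histone mark used for most libraries, labels chromatin around promoters and enhancers. Dendritic cells (DCs), differentiated with GM-CSF from progenitor lines of mouse bone marrow, were compared with 3T3 fibroblasts, an immortalised mouse line, to ask how nucleosome arrangement depends on cell type and stimulation. Each value at a promoter is an occupancy relative to the surrounding 1 kb, in 200 bins of 10 bp from 1000 bp upstream to 1000 bp downstream of the TSS. DCs were either non-stimulated (n = 1 set) or treated for 1 h with 100 ng/ml LPS, a bacterial cell wall component (n = 1 set). Fibroblasts were non-stimulated (n = 1 set) or treated for 1 h with 5 ng/ml TNF-α, an inflammatory cytokine (n = 1 set). Each of these 4 sets pools 2 replicates, so that in a comparison of cell types the 2 states of a cell type stand in for replicates. A further 8 H3K4me1 libraries from fibroblasts were single replicates, 2 each of non-stimulated and TNF-α-treated control cells and of non-stimulated and TNF-α-treated BAF-knockdown cells. In the latter a stably expressed short hairpin RNA targets Brg1 and Brm, the catalytic subunits of the BAF chromatin remodelling complex. Last, 2 libraries for RNA polymerase II phosphorylated at serine 7 (S7P) and 1 for serine 5 (S5P) came from TNF-α-treated fibroblasts. The study describes its replicates as independent biological samples.

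Hox genes encode homeodomain transcription factors that give cells along the body axis their positional identity. The genes of a cluster lie in the order of the body regions in which they are used, and all are transcribed in the same direction. Cells outside the embryo keep characteristic sets of active Hox genes, with the others held silent by Polycomb group proteins, and fibroblasts from different body sites are known to differ in these sets. Some Hoxb genes are also active in blood progenitors. At most active promoters a nucleosome depleted region (NDR) lies just upstream of the TSS and is followed by regularly spaced nucleosomes, an arrangement called patterning.

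The sequences upstream of 6 Hox start sites are shown because the measurements at the NDR differ among them. All 6 genes except Hoxd13 were expressed in fibroblasts. The window of Hoxd8, Hoxd13 and Hoxa4 was depleted in most fibroblast H3K4me1 libraries. That of Hoxa7 and Hoxd9 was mostly occupied in them although those genes were expressed. Hoxa5 has a window as GC-rich as that of Hoxa4 and was expressed, but was mostly occupied in fibroblast H3K4me1 libraries. Within 200 bp of the TSS its GC content was lower, 55.75% against 72% at Hoxa4, 78.25% at Hoxd13 and 78.75% at Hoxd8. Each is the 150 bp window upstream of the TSS in which the NDR was measured, read 5′ to 3′ in the direction of the gene from the mm9 genome, with CpG dinucleotides in capitals.
Hoxd8, chr2:74543397-74543546, plus strand: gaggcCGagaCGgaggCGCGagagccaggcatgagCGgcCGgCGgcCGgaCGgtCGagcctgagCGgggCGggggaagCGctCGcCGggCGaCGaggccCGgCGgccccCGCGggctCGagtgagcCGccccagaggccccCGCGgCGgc
Hoxd13, chr2:74506218-74506367, plus strand: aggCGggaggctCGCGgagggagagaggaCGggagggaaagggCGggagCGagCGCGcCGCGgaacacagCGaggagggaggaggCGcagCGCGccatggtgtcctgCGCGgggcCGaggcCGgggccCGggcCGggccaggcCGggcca
Hoxa4, chr6:52141703-52141852, minus strand: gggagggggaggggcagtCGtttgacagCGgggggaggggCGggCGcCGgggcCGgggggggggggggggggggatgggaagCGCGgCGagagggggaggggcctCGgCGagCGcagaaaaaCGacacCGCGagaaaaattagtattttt
Hoxa5, chr6:52154587-52154736, minus strand: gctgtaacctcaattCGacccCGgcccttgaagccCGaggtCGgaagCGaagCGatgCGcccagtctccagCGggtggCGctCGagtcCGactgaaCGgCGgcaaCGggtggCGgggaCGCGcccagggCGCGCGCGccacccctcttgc
Hoxa7, chr6:52168573-52168722, minus strand: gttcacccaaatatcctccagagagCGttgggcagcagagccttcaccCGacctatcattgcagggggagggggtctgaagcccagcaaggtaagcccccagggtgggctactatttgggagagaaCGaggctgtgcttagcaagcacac
Hoxd9, chr2:74535671-74535820, plus strand: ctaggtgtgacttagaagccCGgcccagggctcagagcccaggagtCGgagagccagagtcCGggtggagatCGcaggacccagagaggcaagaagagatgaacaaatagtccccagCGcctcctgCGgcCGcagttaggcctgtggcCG
The GC content of these windows was 82.7% at Hoxd8, 79.3% at Hoxd13, 71.3% at both Hoxa4 and Hoxa5, 63.3% at Hoxd9 and 58% at Hoxa7, and they held 26, 21, 15, 21, 8 and 3 CpGs respectively. Across all 40 Hox windows GC content ranged from 38% to 82.7%. CpG islands, called within 200 bp of the TSS, were present at 22 of 40 Hox promoters (55%), against 48.3% of the 25738 promoters with a sequence read, and were unevenly spread, with 8 of 9 HoxD promoters but 2 of 11 HoxB promoters. The letters TATAAA, searched in the 150 bp window on both strands, were found at 5 Hox promoters (Hoxb6, Hoxb7, Hoxb8, Hoxc5 and Hoxd4), or 12.5% against 7.42% of all promoters. CCAAT was found in 42.5% against 26.1%. TGATNNAT, a form of the joint binding site of Hox and Pbx proteins, was found at 5 promoters (Hoxa2, Hoxb8, Hoxb9, Hoxc11 and Hoxd11), or 12.5% against 3.62%. All but 1 of the 40 windows consisted of unique sequence, the exception being Hoxc8 at 76.7% unique 32-mers.

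Read totals are not part of these relative values. As a stand-in for depth, the share of non-empty bins at promoters with a score above 100 lay between 82.0 and 90.2% for pooled sets, between 63.5 and 78.1% for single H3K4me1 libraries and between 69.2 and 81.2% for polymerase libraries. No Hox promoter lacked fragments in any of the 15 libraries. Expression values, which come from separate public RNA-seq data of non-stimulated cells, followed the cell type labels. Of 8 DC markers 7 were expressed in DCs and 1 (Cd74) in fibroblasts, and of 8 fibroblast markers 8 were expressed in fibroblasts and 2 (Col1a1 and Col1a2, at 0.0869 and 0.116 FPKM) in DCs. These values check the RNA-seq data and not the ChIP-MNase libraries.

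Hox genes were expressed in both cell types but differed in cluster and in number. Expression was called above 0.02 times the mean of all promoters, which is 0.0507 FPKM in DCs and 1.596 FPKM in fibroblasts. The scales differ, so FPKM values are compared only within a cell type. In fibroblasts 12 of 38 Hox genes passed this limit, 6 of 10 in HoxA, none of 10 in HoxB, 2 of 9 in HoxC and 4 of 9 in HoxD. In DCs 3 of 38 passed, 1 in HoxA, 2 in HoxB and none in HoxC or HoxD. Among all promoters 40.2% passed in fibroblasts and 48.1% in DCs. The RNA-seq values are given once per cell type, without replicates, and were not tested.

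Within HoxA, the fibroblast genes formed a block of neighbours on the side of the cluster that is used towards the head. Hoxa2, which patterns the hindbrain and its neural crest, was listed at 10.2 FPKM, Hoxa3, needed for thymus and parathyroid development, at 10.9 and Hoxa5, which acts in lung and axial skeleton, at 35.05. Hoxa4, Hoxa6 and Hoxa7 were listed at 3.01, 3.87 and 7.34 FPKM. The next genes of the cluster fell below the limit, from 0.938 FPKM at the upstream start of Hoxa10 to 0.0284 at Hoxa11, and Hoxa13 was listed at 0.

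In HoxD the expressed genes were also neighbours. Hoxd8 had the highest value of all Hox genes in fibroblasts, 35.1 FPKM, followed in this cluster by Hoxd9 at 8.19, Hoxd4 at 5.58 and Hoxd3 at 4.79. Hoxd10 was listed at 0.415 FPKM, and Hoxd11, Hoxd12 and Hoxd13, which shape the distal limb, at 0.0509, 0 and 0.0255 FPKM. Hoxd1, at the head side of the cluster, was also listed at 0. In both HoxA and HoxD the genes used towards the tail and limb ends were thus below the limit. In HoxC the expressed genes were Hoxc6 at 7.99 FPKM and Hoxc4 at 2.39, with Hoxc5 between them at 1.45, just below the limit.

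At these limits HoxB differed in that it held 2 of the 3 genes expressed in DCs but none of those expressed in fibroblasts. The contrast rests on the unequal limits. Above 0 FPKM were 4 of 10 HoxB genes in DCs and 9 of 10 in fibroblasts. Hoxb4, known for promoting the expansion of blood stem cells, had the highest Hox value in DCs, 0.424 FPKM, and the upstream start of Hoxb3 was listed at 0.0758 FPKM. This Hoxb3 value lies below those of the fibroblast markers Col1a1 and Col1a2 in DCs, 0.0869 and 0.116 FPKM. In fibroblasts the highest HoxB value was 0.690 FPKM at Hoxb9, while Hoxb4 was listed at 0.0645. Hoxa2 was the only Hox gene above the limit in both cell types, at 0.187 FPKM in DCs.

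**Figure D1:**
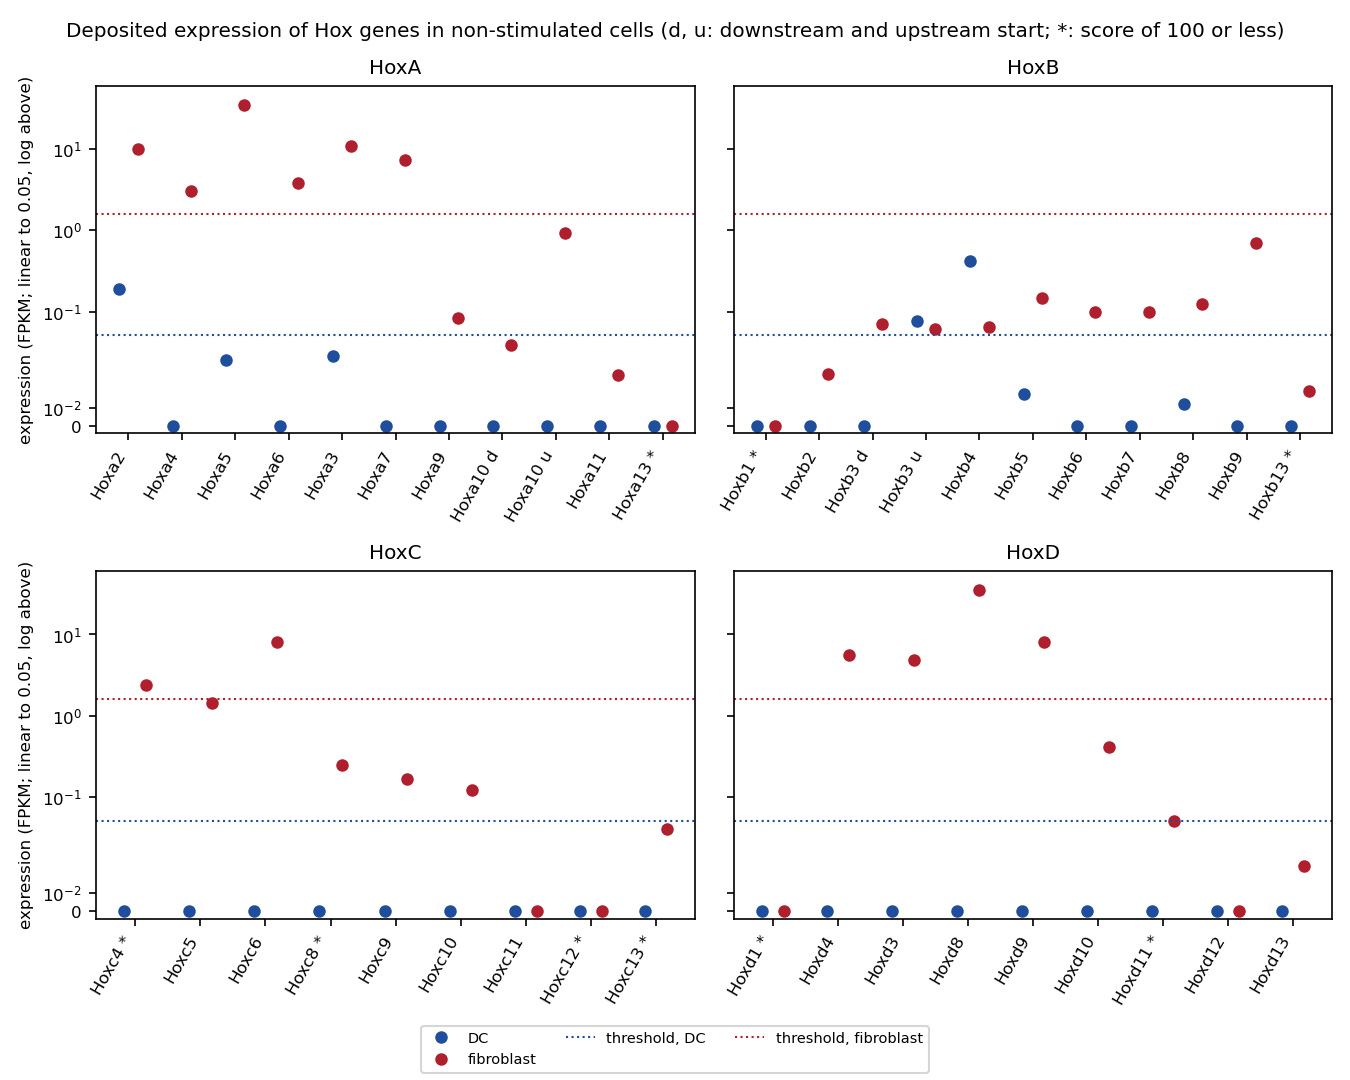
Deposited expression in FPKM (vertical axis, linear up to 0.05 and logarithmic above) of each Hox promoter in order along the 4 clusters, for DCs (blue) and fibroblasts (red), 1 value each, with dotted lines at the limits of 0.0507 and 1.596 FPKM. Fibroblast values above the limit lie in neighbouring genes of HoxA and HoxD and at Hoxc4 and Hoxc6, up to 35.1 FPKM at Hoxd8, and none lies in HoxB.

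The mean occupancy profile of Hox promoters lacked the NDR of active promoters in every pooled set. The NDR ratio compares the mean occupancy of the window from −150 to 0 bp with that of the flank from −1000 to −500 bp, and was 1.12 in non-stimulated and 0.987 in LPS-treated DCs for the 31 Hox promoters with a score above 100. In fibroblasts it was 0.842 before and 0.934 after TNF-α. All active promoters had ratios of 0.569 and 0.548 for the DC sets and 0.502 and 0.456 for the fibroblast sets, and for promoters listed at 0 FPKM 0.934, 0.920, 0.947 and 0.961 in the same order. The Hox ratio thus lay closer to that of promoters at 0 FPKM than to that of active promoters in all 4 sets. The 2 cell types differed less plainly, with a mean ratio of 1.05 ± 0.0947 (SD, n = 2 sets) in DCs and 0.888 ± 0.0655 (SD, n = 2 sets) in fibroblasts, and 2 sets against 2 cannot reach an exact permutation p below 0.05, so no test was made.

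**Figure D2:**
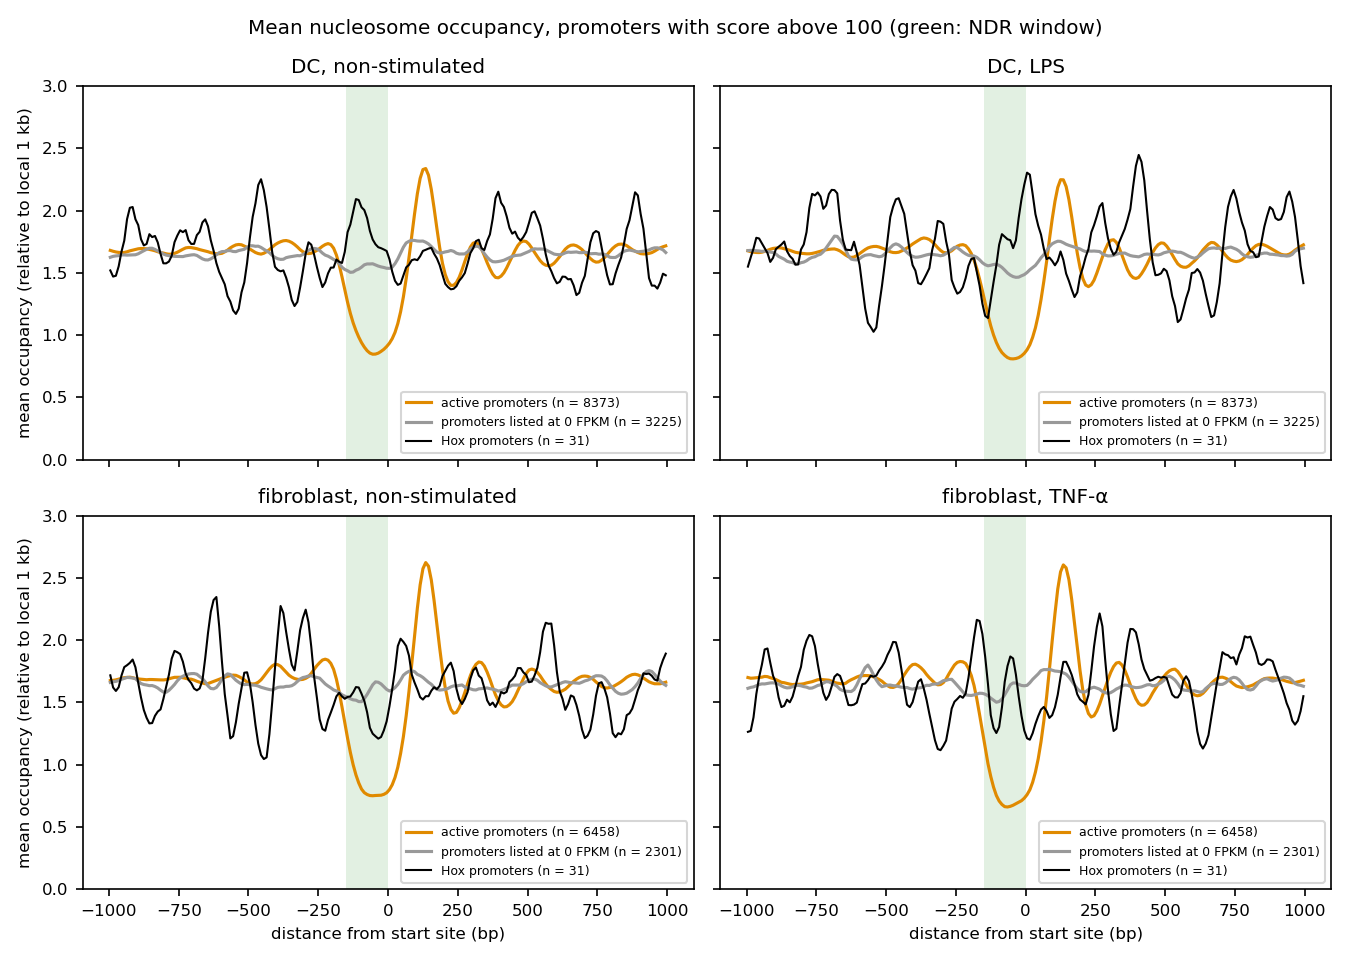
Mean nucleosome occupancy relative to the local 1 kb (vertical axis) against distance from the TSS in bp, in the 4 pooled H3K4me1 sets, for 31 Hox promoters (black), active promoters (orange) and promoters listed at 0 FPKM (grey), with the NDR window in green. Active promoters dip in the green window, to an NDR ratio of 0.456 to 0.569, whereas the Hox mean, which is more ragged because it averages few promoters, stays at a ratio of 0.842 to 1.12.

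The NDR of active promoters was also absent from the mean profile of expressed Hox genes, although Hoxd8 and Hoxa4 among them were depleted, as given below. The mean profile of the 11 Hox promoters that were expressed in fibroblasts and had a score above 100 gave an NDR ratio of 0.854 in non-stimulated and 0.888 in TNF-α-treated cells. To follow single promoters, the NDR level was taken as log2 of the mean occupancy from −150 to 0 bp over that from −1000 to −500 bp, each with 0.1 added. A level of 0 means a window as occupied as its flank. The level of a window without fragments depends on the occupancy of its flank. Mean occupancy was 1.615 to 1.6325 in pooled sets and 0.791 to 0.8036 in single H3K4me1 libraries. An empty window therefore reaches a lower level in pooled sets, and low levels of the pooled and single libraries are not on a common scale. In non-stimulated fibroblasts active promoters had a median level of −1.22 (quartiles −3.06 and −0.29) and promoters at 0 FPKM a median of −0.11. The median of the 11 expressed Hox promoters was −0.06, and after TNF-α it was −0.12 against −1.63 for active promoters. Of these 11, 9 before and 8 after TNF-α had a higher level, that is, a less depleted window, than the median active promoter. A level even above the median of promoters at 0 FPKM was found at 6 and 5 of 11, against 19.65% and 18.5% of active promoters. In the 8 single fibroblast libraries 7 to 10 of 11 lay above the active median.

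The highest expressed HoxA genes were among these occupied promoters. Hoxa5 had levels of −0.51 and −0.20 in non-stimulated and TNF-α-treated fibroblasts, and Hoxa3 of −0.02 and 0.67. Hoxa7 was at 0.17 in both sets and Hoxa2 at 0.09 and −0.12. Hoxc6, a gene of the thoracic region, was at 0.48 and 0.57, and Hoxd9 at −0.06 and 1.01. None of these 6 expressed promoters had a level below −1 in either pooled fibroblast set. Of the 8 single libraries, 3 were below −1 at Hoxd9, 2 at Hoxa5, 1 each at Hoxa2 and Hoxa3, and 0 at Hoxa7 and Hoxc6. Hoxa6 was occupied before TNF-α, at 0.03, and depleted after it, at −2.43, but in the 8 single libraries it ranged from −0.64 to 0.33. Hoxd3 and Hoxd4 lay between −1.33 and 0.28 in the pooled fibroblast sets. Hoxc4, expressed at a score of 70.25, was at −0.38 and 0.60.

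A depleted window recurred at 3 Hox promoters. A level below −1 was seen in 9 of the 10 fibroblast H3K4me1 libraries at Hoxd8, in 8 of 10 at Hoxd13 and in 7 of 10 at Hoxa4, and in at most 4 of 10 at each of the other 37 Hox promoters. Promoters below −1 in at least 7 of 10 libraries made up 3 of 31 Hox promoters (9.68%) and 2 of the 11 expressed in fibroblasts (18.2%). The share was 20.7% among all 13559 promoters tested, 32.1% among active promoters and 6.13% among promoters at 0 FPKM. At the other extreme, 11 of 31 Hox promoters (35.5%) were above −1 in all 10 libraries. So were 14.4% of all promoters tested, 7.05% of active promoters and 27.9% of those at 0 FPKM. Of the 3 recurrently depleted promoters, Hoxd8 and Hoxa4 were expressed in fibroblasts, whereas Hoxd13 was far below the limit. The polymerase libraries of TNF-α-treated fibroblasts did not all follow. In them Hoxd13 was at 0.34 and −0.04 with S7P and −0.28 with S5P, with fragments in 77%, 100% and 98.5% of bins. Hoxd8 was at −3.72 and −3.80 with S7P and 0.23 with S5P, and Hoxa4 at −3.26, 0.02 and −1.71.

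Hoxd8, the highest expressed Hox gene of fibroblasts, was depleted in fibroblasts and not in DCs. Its NDR level was 0.10 in non-stimulated and −0.17 in LPS-treated DCs, and −3.03 in non-stimulated and −3.54 in TNF-α-treated fibroblasts. The sets of the 2 cell types did not overlap, and the mean difference was −3.25 ± 0.50 (SE). In the 8 single fibroblast libraries 7 lay between −3.66 and −1.01 and 1, the first replicate of non-stimulated control cells, at 1.69. By limma over all 13559 promoters the difference had a Benjamini-Hochberg adjusted p of 0.280, which is also the smallest adjusted p of any promoter. The window held no fragment in 10 of 15 libraries. The whole 2 kb around this TSS was thinly covered in fibroblasts, where 52% and 43.5% of bins held a fragment, against 84% and 74% in DCs, and the part of this in the low NDR level was not tested.

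Hoxd13, listed at 0.0255 FPKM in fibroblasts and 0 in DCs, showed a similar direction with more scatter. Its level was −1.77 and 0.19 in non-stimulated and LPS-treated DCs, and −3.27 and −4.05 in non-stimulated and TNF-α-treated fibroblasts. The fibroblast sets lay below both DC sets, with a difference of −2.87 ± 0.87 (SE; limma, adjusted p = 0.537). Among single libraries it ranged from −3.57 to 1.73, so that fibroblast libraries covered the range of the DC sets. Here too coverage was lower in fibroblasts, with 56.5% and 54.5% of bins against 93.5% and 93%.

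Hoxa4, listed at 0 FPKM in DCs, had a level below −1 in 1 of 2 DC sets and in both pooled fibroblast sets. Levels were −4.19 and −0.90 in DCs and −1.47 and −4.40 in fibroblasts, and the cell types overlapped. The difference was −0.38 ± 1.605 (SE; limma, adjusted p = 0.976). All 3 recurrently depleted promoters had a window of high GC content, described below, while Hoxd13 differed from Hoxd8 and Hoxa4 in lying below the expression limit.

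Across all 31 Hox promoters tested, the cell types were not separated at the adjusted threshold. By limma with Benjamini-Hochberg adjustment, 0 of 31 Hox promoters and 0 of 13559 promoters (0%) differed in NDR level at 0.05. At an unadjusted p below 0.05 there were 2 Hox promoters (6.45%), Hoxd8 and Hoxd13, both lower in fibroblasts, against 7.68% of all promoters. The median difference, fibroblasts minus DCs, was −0.16 for Hox and −0.09 for all promoters tested. Sets that did not overlap were lower in fibroblasts at 8 of 31 Hox promoters against 21.2% of all, and higher at 3 of 31 against 16.9%. These shares of the Hox promoters are near the background. A count of 0 does not show that levels were equal.

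At Hoxb2, Hoxb4 and Hoxb5 the LPS-treated DC set lay apart from the other 3 pooled sets. In LPS-treated DCs Hoxb2, Hoxb4 and Hoxb5 were at −4.20, −4.14 and −4.21, whereas in non-stimulated DCs they were at 0.93, 0.49 and −0.45. Fibroblasts had −0.76 and 0.11 at Hoxb2, −0.40 and 0.10 at Hoxb4, and −0.41 and 0.33 at Hoxb5. The differences between cell types were 1.31, 1.68 and 2.29 (SE 1.87, 1.69 and 1.42; limma, adjusted p = 0.900, 0.849 and 0.820). Without the LPS-treated set the difference turned to −1.25 at Hoxb2 and −0.64 at Hoxb4, and that of Hoxb5 fell to 0.41. Coverage at these promoters was lower in that set than in non-stimulated DCs, at 68% against 87.5% of bins for Hoxb2, 76.5% against 94% for Hoxb4 and 77.5% against 87% for Hoxb5, and its part was not tested. LPS treatment itself had 1 set on each side and was not tested.

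Other members differed less between cell types than Hoxd8 or varied between the sets of a cell type. Hoxa5 was at −0.97 and −2.74 in DCs and −0.51 and −0.20 in fibroblasts, without overlap, with a difference of 1.503 ± 0.78 (SE; limma, adjusted p = 0.792). The downstream start of Hoxa10 was above its flank in DCs, at 1.28 and 1.37, and at 0.53 and −0.16 in fibroblasts, a difference of −1.14 ± 0.52 (SE; limma, adjusted p = 0.745). Hoxc5 was lowest in non-stimulated DCs, with −2.56 against −0.26 after LPS and −1.19 and 0.46 in fibroblasts. Hoxd12 was lowest in non-stimulated fibroblasts, with −3.92 against 0.75 after TNF-α and 0.15 and −1.05 in DCs. Hoxc11, listed at 0 FPKM in both cell types, lay between −0.41 and 0.60 in all 4 sets. Hoxc13, with a score of 77.5, was low in all 4 sets, at −2.89 and −2.53 in DCs and −3.51 and −0.93 in fibroblasts.

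**Figure D3:**
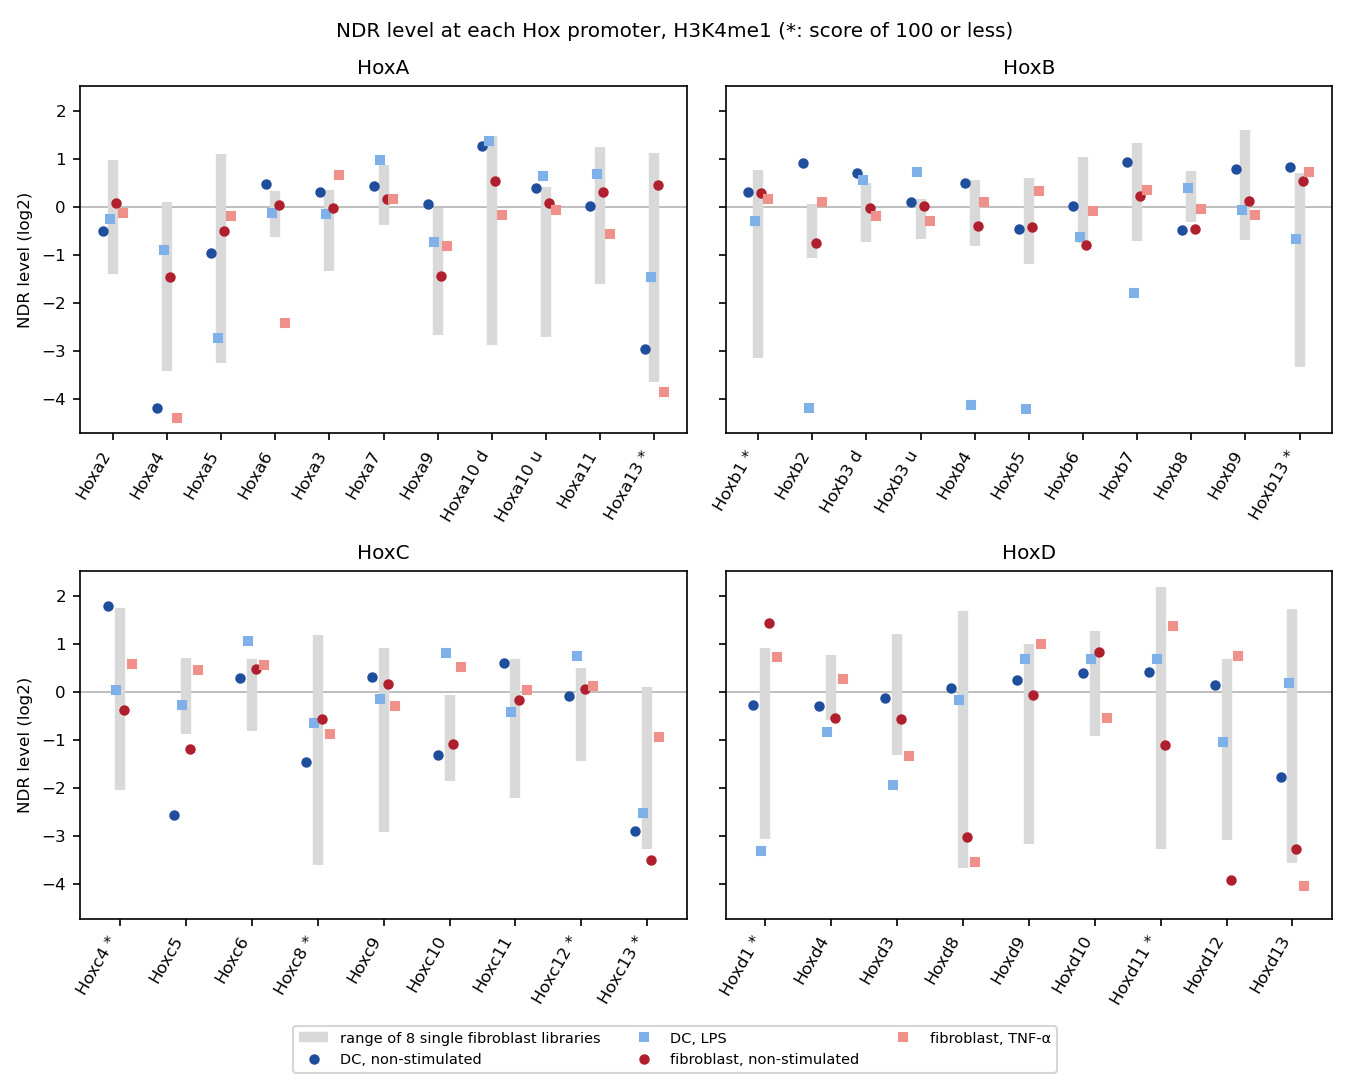
NDR level on the log2 scale (vertical axis) at each of the 40 Hox promoters in order along the clusters, as points for the 4 pooled H3K4me1 sets and as grey bars for the range of the 8 single fibroblast libraries. Most points lie around 0, and both fibroblast sets lie below −3 only at Hoxd8 and Hoxd13.

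The patterning level of the cell types had opposite orders at Hoxd8 and Hoxc5. The patterning level sums the match of a promoter's occupancy to the mean profile of active promoters of that cell type, so that promoters without the pattern lie near 0 and those with an inverse arrangement below 0. Its median was 10.5 at active and 0.559 at 0 FPKM promoters in non-stimulated fibroblasts, and −0.173 at the 31 Hox promoters. In non-stimulated DCs it was 8.31, 0.910 and −1.25 respectively. Hoxa5, although its window was mostly occupied, was at 11.2 and 12.0 in non-stimulated and TNF-α-treated fibroblasts. The medians of active promoters there were 10.5 and 10.6. Hoxa4 had the highest level of the Hox promoters tested in all 4 sets except DCs after LPS, with 32.1 and 24.1 in DCs and 19.5 and 29.2 in fibroblasts. Its patterning therefore lay above the third quartile of active promoters, 18.2 and 19.02, in both pooled fibroblast sets. In the 8 single fibroblast libraries Hoxa4 was less uniform, from −4.30 to 11.2 with a median of 5.81. The medians of active promoters in these libraries were 3.20 to 4.78.

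Hoxd8 was at −7.74 and −11.6 in DCs and at 16.6 and 9.96 in fibroblasts, a difference of 23.0 ± 5.80 (SE; limma, adjusted p = 0.618). Hoxc5 was at 21.1 and 20.1 in DCs, where it was listed at 0 FPKM, and at 1.11 and −7.75 in fibroblasts, a difference of −23.9 ± 5.92 (SE; limma, adjusted p = 0.618). The 2 genes thus differed in opposite directions. Hoxd8 was above the expression limit in fibroblasts, and Hoxc5 was below the limit in both cell types. The downstream start of Hoxa10 was at −15.9 and −19.1 in DCs and −2.13 and 6.68 in fibroblasts, and that of Hoxb3 at −17.4 and −25.0 in DCs and −1.84 and 0.0307 in fibroblasts. Both were inverse in DCs and nearer to 0 in fibroblasts, with differences of 19.8 ± 5.97 and 20.3 ± 5.82 (SE; limma, adjusted p = 0.618 for both). In all, 0 of 31 Hox promoters passed the adjusted limit, as did 0% of all promoters, and 4 of 31 (12.9%) had an unadjusted p below 0.05 against 8.02%. The median difference was 2.89 for Hox promoters and 0.423 for all.

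The windows of the recurrently depleted promoters were GC-rich, but not every GC-rich window was depleted. In fibroblasts the 4 tested Hox promoters with a window of at least 70% GC, Hoxa4, Hoxa5, Hoxd8 and Hoxd13, had a median level of −2.25 before and −3.80 after TNF-α. This median is carried by the 3 recurrently depleted promoters, since Hoxa5, with 71.3% GC like Hoxa4, was at −0.51 and −0.20. Below the limit on score, Hoxd1, with 72% GC, was at 1.44 and 0.74, and Hoxa13, with 82.7% GC, at 0.46 and −3.86. The 16 with 50 to 60% GC had medians of 0.0043 and −0.13. For all promoters the medians of these GC classes were −1.14 and −1.51, and −0.41 and −0.41. Pearson's r between GC content and level over the 31 Hox promoters was −0.45 in non-stimulated and −0.60 in TNF-α-treated fibroblasts, with Spearman's rho of −0.22 and −0.29. In DCs r was −0.22 and 0.04. Over all 13559 promoters r was −0.24 and −0.28 in fibroblasts and −0.19 and −0.24 in DCs. These are descriptions across promoters of 1 library, which share its depth and lie next to each other in clusters. Coverage also differed between these classes. In non-stimulated and TNF-α-treated fibroblasts a median of 71.25% and 70.25% of bins held a fragment at the 4 promoters of at least 70% GC. At the 16 with 50 to 60% GC the medians were 91.75% and 87.25%. The parts of GC content and of coverage in the NDR level were not tested.

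**Figure D4:**
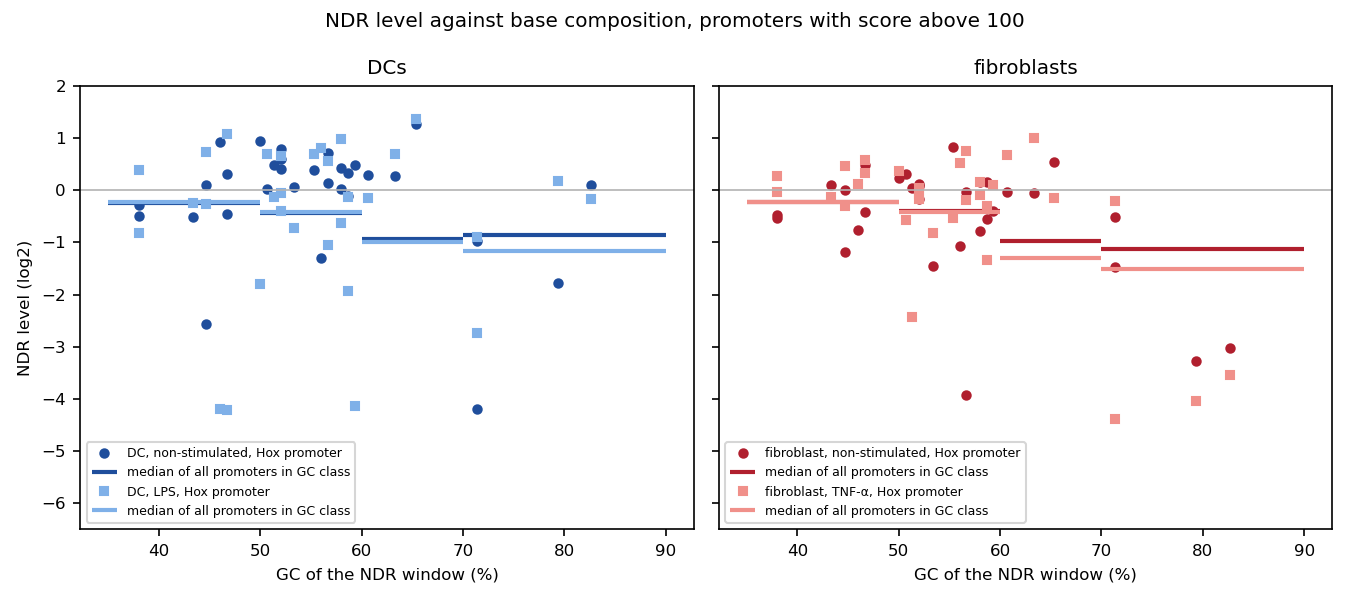
NDR level on the log2 scale (vertical axis) against GC content of the 150 bp window in percent, for 31 Hox promoters in DCs (left) and fibroblasts (right), with bars at the median of all promoters in 4 GC classes. In fibroblasts the points at 70% or more have medians of −2.25 and −3.80, whereas Hox promoters at 60 to 70% lie above the bars of their class.

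The clusters were also compared by how completely H3K4me1 fragments covered them, a comparison chosen after the data had been seen. The occupancies are divided by the local total, so the percentage of the 200 bins with any fragment was used as the measure, and it depends both on H3K4me1 enrichment and on sequencing depth. HoxD was poorly covered in fibroblasts. The median over its 9 promoters was 85% and 74% in non-stimulated and LPS-treated DCs, and 56.5% and 55% in non-stimulated and TNF-α-treated fibroblasts. The median over HoxB was 84.5% and 72.5% in DCs and 94.5% and 91.5% in fibroblasts. HoxB thus lay above HoxD by a wide margin in fibroblasts and level with it in DCs. HoxA had medians of 88.5% and 87.5% in DCs and 95% and 88% in fibroblasts, and HoxC 89.5% and 78.5%, and 89.5% and 86%.

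In HoxD, coverage was lower in fibroblasts than in DCs both at expressed and at silent genes. At Hoxd9, which was expressed, 87.5% and 88.5% of bins held a fragment in DCs, and 48% and 55% in fibroblasts. At Hoxd12, listed at 0 FPKM, it was 99% and 85% in DCs and 51.5% and 62.5% in fibroblasts. At Hoxd13 and Hoxd8 the values given above were also lower in both fibroblast sets. Hoxd11, with a score of 77.5, had 77.5% and 61.5% in DCs and 51% and 47% in fibroblasts. Hoxd4, towards the other end of the cluster, did not follow, with 81.5% and 61% in DCs and 71.5% and 88% in fibroblasts. Nor did Hoxd1 at that end, with a score of 20.5, which had 64% and 34.5% in DCs and 57% and 53.5% in fibroblasts. Of the 7 HoxD promoters tested 6 were lower in both fibroblast sets than in either DC set, and none was higher. Among all promoters tested 38% were lower and 13.7% higher in this sense.

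In HoxB the direction was the opposite, and none of its genes passed the expression limit in fibroblasts. The downstream start of Hoxb3 had fragments in 74.5% and 57.5% of bins in DCs and in 97.5% and 99.5% in fibroblasts. Hoxb6 had 84% and 58% in DCs, and 97% and 95% in fibroblasts. The upstream start of Hoxb3 had 84.5% and 71%, and 98.5% and 96%. Of the 9 HoxB promoters tested 8 were higher in both fibroblast sets and none was lower. The exception was Hoxb4, the Hox gene with the highest DC expression, at 94% and 76.5% in DCs but 86.5% and 83.5% in fibroblasts. In HoxA 6 of 10 were higher in fibroblasts and 2 lower. The largest HoxA difference was at Hoxa5, with 67% and 31.5% in DCs and 97% and 93% in fibroblasts.

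Because a promoter enters the tested list through its coverage, the same count was made over all promoters without the limit on score. Of 11 HoxB promoters 10 were higher in fibroblasts and none lower, against 26.2% and 29.5% of 25881 promoters. Of 9 HoxD promoters none was higher and 7 were lower. When each value was replaced by its percentile within the library, which puts sets of unequal depth on a common scale, 8 of 9 tested HoxB promoters were higher in fibroblasts against 28.7% of all, and 5 of 7 HoxD promoters were lower against 28.5%. Without the limit on score these percentiles were higher at 10 of 11 HoxB promoters against 28.8%, and lower at 6 of 9 HoxD promoters against 32.6%. The promoters of a cluster lie next to each other and are not independent, so these counts describe 4 clusters in 4 sets.

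None of these differences passed the adjusted limit. By limma on the arcsine square root of the share of covered bins, 0 of 31 Hox promoters and 0% of all were called at an adjusted p of 0.05. The lowest adjusted p of a Hox promoter, 0.0882, was shared by Hoxd13 (difference −0.47 ± 0.04, SE) and Hoxd9 (−0.42 ± 0.05) and equals the lowest of any promoter. At an unadjusted p below 0.05 there were 12 of 31 Hox promoters (38.7%), 7 higher and 5 lower in fibroblasts, against 23.9% of all promoters. The 12 comprised Hoxd8, Hoxd9, Hoxd12, Hoxd13 and Hoxa11 on the lower side, and Hoxb6, both starts of Hoxb3, Hoxa2, Hoxa4, Hoxa5 and the upstream start of Hoxa10 on the higher side.

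The 8 single fibroblast libraries, which did not enter that comparison, gave HoxD the lowest coverage as well. In each of these 8 the median over HoxD was the lowest of the 4 clusters, at 52 to 61% against 69 to 90.5% for the other clusters. Hoxd8 ranged from 32.5 to 52.5% in the single libraries, Hoxd9 from 49 to 71%, Hoxd12 from 61.5 to 84.5% and Hoxd13 from 36 to 74.5%. Most Hoxd12 values lay above both pooled fibroblast sets, at 51.5% and 62.5%, although single libraries are less deep. Hoxd13 reached 72% and 74.5% in TNF-α-treated BAF-knockdown cells, above its pooled 56.5% and 54.5%. The low pooled coverage of these 2 promoters thus did not recur in every single library. Single libraries are less deep than the pooled DC sets, so only the order of clusters within them is compared here. Less H3K4me1 at HoxD and less recovery of its fragments cannot be told apart.

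**Figure D5:**
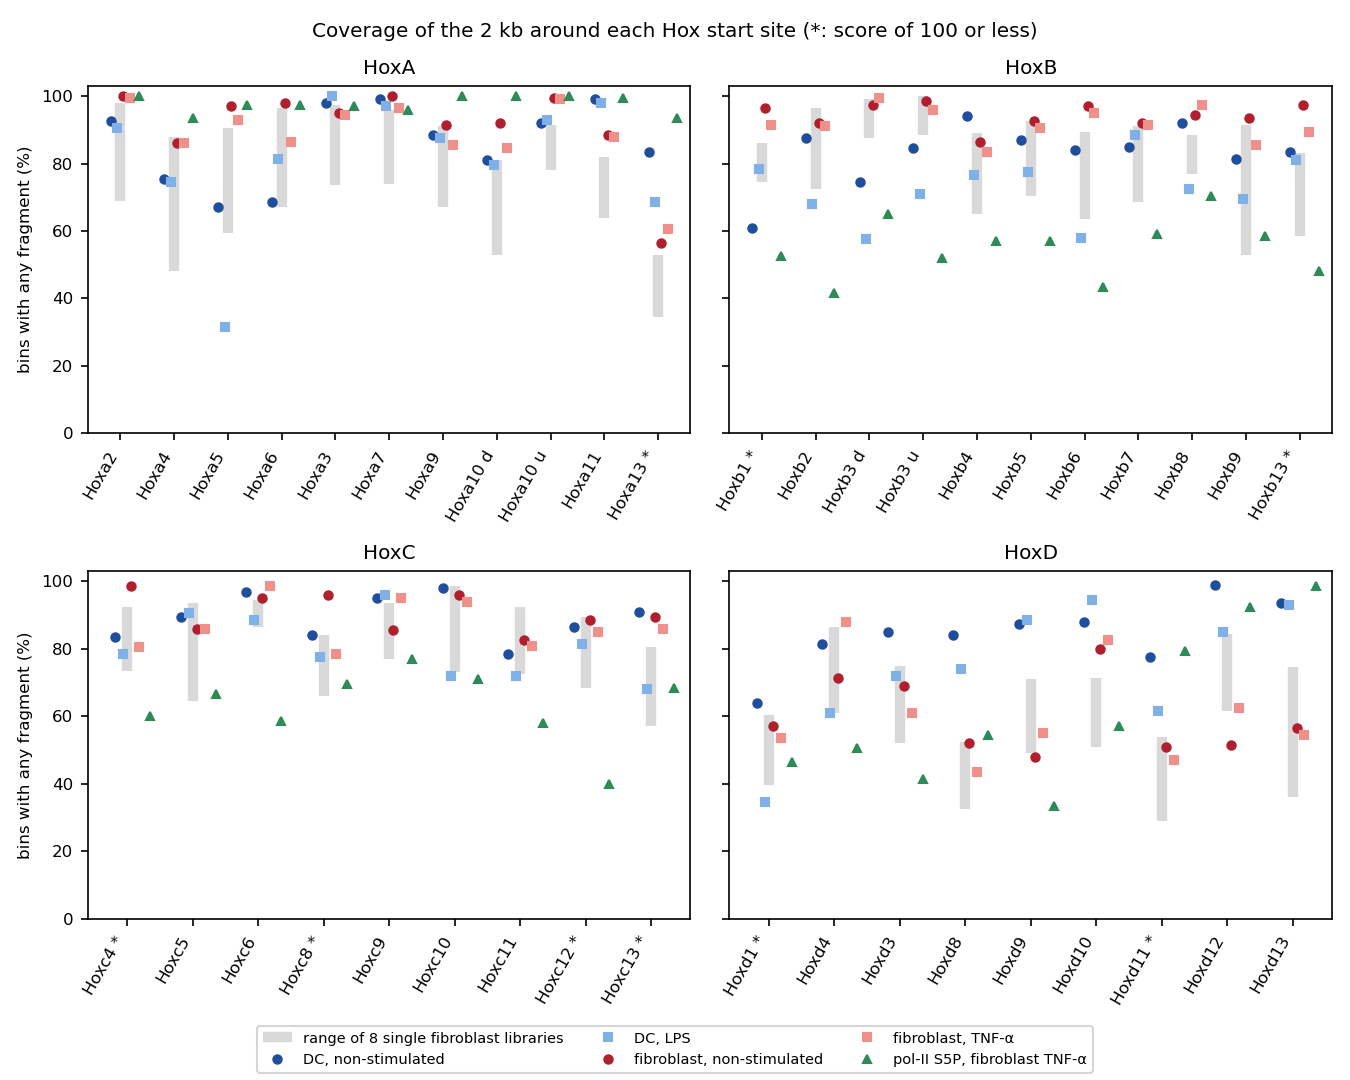
Percentage of the 200 bins around each Hox start site that held any fragment (vertical axis), in order along the clusters, as points for the 4 pooled H3K4me1 sets and the S5P library and as grey bars for the range of the 8 single fibroblast libraries. From Hoxd8 to Hoxd13, red fibroblast points lie below blue DC points, in HoxB mostly above them, and the green S5P points are at 93.5% or more in HoxA.

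The polymerase libraries separated the clusters in another way. Fragments recovered with the S5P antibody, which marks polymerase near the start of genes, covered 93.5 to 100% of bins at all 11 HoxA promoters, with a median of 97.5%. Medians were 57% in HoxB, 66.5% in HoxC and 54.5% in HoxD. In both S7P libraries HoxA also had the highest median, 78.5% and 95.5%, against 49 to 51% for the other clusters in the first and 65 to 76.5% in the second. HoxA coverage did not follow expression within the cluster, since Hoxa9, Hoxa11 and Hoxa13, all below the expression limit, had 100%, 99.5% and 93.5% in the S5P library. The captured pieces span several kilobases, and the paper names the possibility that silent promoters are recovered through polymerase on a neighbouring gene. Coverage in these libraries therefore does not place polymerase at a given promoter. In HoxD the S5P values were highest at the silent end, 98.5% at Hoxd13 and 92.5% at Hoxd12, and lowest at the expressed Hoxd9, 33.5%. HoxC, which holds 2 expressed genes, reached at most 77%. These 3 libraries have no counterpart in DCs or in non-stimulated cells, and they were sequenced with paired-end reads where the H3K4me1 libraries had single-end reads, so antibody and type of sequencing cannot be told apart.

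TNF-α had no effect on NDR level at Hox promoters that limma could call in the 8 single fibroblast libraries. With knockdown as a term, 0 of 31 Hox promoters passed, against 0% of 13427 promoters, and at an unadjusted p below 0.05 there were 0 Hox promoters against 5.54%. The median difference was 0.15 for Hox promoters and −0.09 for all. BAF knockdown likewise gave 0 of 31 at the adjusted limit, against 0%, and 0 of 31 unadjusted against 4.98%, with medians of −0.08 and 0.013.

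For patterning level the counts at an unadjusted p below 0.05 were 2 of 31 for TNF-α (6.45%, against 4.8% of all promoters) and 1 of 31 for knockdown (3.23%, against 5.22%), with 0 Hox promoters and 0% of all at the adjusted limit in both. Hoxd8 was at −7.50 and 4.68 in non-stimulated control cells and 2.75 and 4.56 in non-stimulated BAF-knockdown cells, and at 8.20 and 7.18 and at 11.95 and 11.04 in the same cells after TNF-α. All 4 TNF-α-treated libraries lay above all 4 non-stimulated ones, by 8.47 ± 3.05 on average (SE; limma, adjusted p = 0.956). The pooled sets had the opposite order, 16.6 before and 9.96 after TNF-α. Hoxb6 was 7.85 ± 2.81 (SE) lower after TNF-α (limma, adjusted p = 0.956), and Hoxc6 was 5.87 ± 2.58 higher in BAF-knockdown cells (limma, adjusted p = 0.942). The difference in TNF-α effect between control and knockdown cells, an interaction term, was called at 0 of 31 Hox promoters by limma, and 0 of 31 at an unadjusted p below 0.05 for both measures, against 5.76% of all promoters for NDR level and 4.98% for patterning level. Counts of 0 do not show that the effects were equal.

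Other transcripts are annotated to start between the Hox genes, and the windows upstream of these starts were likewise mostly occupied. Several are microRNA entries, whose annotated start need not be a promoter. Of 12 such start sites 10 had a score above 100, and their median NDR level was 0.10 in non-stimulated DCs and 0.16 in non-stimulated fibroblasts. Mira, a long non-coding RNA of the HoxA cluster, was listed at 58.8 FPKM in fibroblasts, above every Hox gene, and was occupied there, at −0.23 and −0.06. Hoxaas3, an antisense transcript listed at 2.39 FPKM, was at 0.09 and 0.54. For antisense genes expression cannot be told apart from that of the Hox gene on the other strand. Mir10a, Mir196b and Hotair had levels between −0.71 and 0.69 in all 4 sets. Low levels also occurred, among them −4.00 at Mira in LPS-treated DCs and −3.04 at Hoxd3os1 in TNF-α-treated fibroblasts. Below the limit on score, Gm53 was at −2.34 in LPS-treated DCs and Mir10b at −1.86 in non-stimulated fibroblasts.

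Genes that act with or on the Hox clusters were described by lists. Of the TALE cofactors, Pbx, Meis and Pknox proteins that bind DNA together with Hox proteins, 4 of 9 tested promoters were expressed in DCs and 5 of 9 in fibroblasts. Their median NDR level was −0.09 in non-stimulated DCs and −0.49 in non-stimulated fibroblasts. Promoters of Polycomb PRC2 genes were expressed at 10 of 11 in DCs and 7 of 11 in fibroblasts, those of PRC1 genes at 12 of 16 in both, and those of trithorax and MLL genes at 5 and 6 of 11. Homeobox genes outside the clusters were expressed at 0 of 14 in DCs and 3 of 14 in fibroblasts, with median levels of −0.33 and −0.79. No promoter of these lists passed the adjusted limit in NDR or patterning level between cell types, with 0% of all promoters passing, and at an unadjusted p below 0.05 the NDR level differed at 0 of 9, 0 of 11, 1 of 16, 0 of 11 and 3 of 14 respectively, against 7.68% of all promoters. Of all 13559 promoters tested, 8373 were expressed in DCs and 6458 in fibroblasts. The median difference in NDR level, fibroblasts minus DCs, was −0.33, −0.20, 0.31, −0.16 and −0.48, against −0.09 for all promoters.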

How the data were processed

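ChIP-MNase data of 15 libraries, 12 for H3K4me1 (4 of them pools of 2 replicates) and 3 for RNA polymerase II, were analysed. The deposited occupancy signal had been made by the authors by alignment to mm9 with bowtie, removal of excess duplicates, selection of fragments of 140 to 180 bp from paired-end reads or extension of single-end reads, and counting in bins of 10 bp relative to the surrounding 1 kb, with smoothing over 50 bp. The tool list in the submitters' processing notes names Bowtie2. The authors' coverage score is the mean number of fragments within 1 kb of the TSS in non-stimulated cells, and the deposited FPKM values come from public RNA-seq. The deposited log2 values hold the authors' own array comparison of stimulated and non-stimulated cells and were not used. The score uses the H3K4me1 libraries, so coverage and the limit on score are not independent.

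Symbols were found for 96.3% of promoters. NDR level (pseudocount 0.1), patterning level and covered bins were computed per library, and promoters with a score above 100 were fitted together with limma 3.58.1 (R 4.3.3) and Benjamini-Hochberg adjustment at 0.05. Cell types were compared over the 4 pooled sets, TNF-α and knockdown over the 8 single libraries with both as terms. All adjusted p-values in the text are from limma. Sequences were read from mm9, and a CpG island was called at over 50% GC and a ratio of observed to expected CpG of more than 0.6. Tables and plots used Python 3.11.15, numpy 2.4.6, pandas 2.3.3 and matplotlib 3.10.9. The fits of cell type on both levels, of TNF-α on NDR level and of knockdown on patterning level were run on simulated data with 200 changed promoters. The other fits were not simulated. Between cell types 0 of 200 were recovered at an added NDR level of 4 or an added patterning level of 40. An added NDR level of 4 for TNF-α recovered 112, and an added patterning level of 20 for knockdown recovered 127. The comparisons of cell types could thus not call changes of these sizes.

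The members and gene lists were chosen with earlier results of these data known. Named with values were promoters past the adjusted limit, the 3 of each cluster with the largest difference of NDR level between cell types, genes expressed in 1 cell type only and the highest expressed gene of each cell type; others named were chosen after their values were seen. The comparison of covered bins was added after seeing the data. Groups and replicate numbers follow the labels. Same-numbered single libraries did not deviate together (correlations from −0.00897 to 0.0208), so replicate number was used as a block only as an alternative. Brg1 and Brm expression was not measured in these libraries, so the knockdown was not checked. Alternatives covered the model terms, libraries, filters, window, flank, pseudocount, scale and template.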

Additional observations from a re-analysis of the deposited data

Results flagged for a closer look

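Among the 8 single fibroblast libraries, 2 mean-profile NDR ratios lay far from the other libraries of their group of 4, by Dixon's test at its 95% critical value of 0.829. For HoxA, the second replicate of TNF-α-treated BAF-knockdown cells had a ratio of 0.6001, and the other 3 knockdown libraries had 0.857, 0.883 and 0.884. For HoxC, the second replicate of TNF-α-treated control cells had a ratio of 1.42, and the other 3 control libraries had 0.957, 0.963 and 1.04. In all 10 groups of 4 libraries were examined, and chance alone marks about 1 in 20 groups. The cause of either value was not tested.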

How the results depend on the processing

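No Hox promoter passed the adjusted limit of limma under any alternative. Adding the 8 single libraries to the comparison of NDR level called 16 other promoters. The lowest adjusted p of a Hox promoter between cell types ranged from 0.264 to 0.844 for NDR level, 0.393 to 0.921 for patterning level and 0.0558 to 0.325 for covered bins, and the count at an unadjusted p below 0.05 from 0 to 7, 2 to 8 and 4 to 15. Without the non-stimulated DC set these counts were 7, 8 and 15 of 31 (22.6, 25.8 and 48.4%, against 8.81, 6.43 and 14.6% of all promoters), and with all sets 2, 4 and 12 (6.45, 12.9 and 38.7%, against 7.68, 8.02 and 23.9%). Without the LPS set the count for NDR level was 1 (3.23%, against 8.70%). Without the non-stimulated fibroblast set or the TNF-α set that for covered bins was 6 or 8 (19.4 or 25.8%, against 23.5 or 18.2%). For TNF-α and knockdown the lowest adjusted p ranged from 0.704 to 0.982 and 0.902 to 0.992 for NDR level, and from 0.864 to 0.995 and 0.846 to 0.9997 for patterning level. Leaving out a set leaves 1 set in a cell type, which is then assumed to vary like the other. Counting any FPKM above 0 as expression gave 7 Hox genes in DCs and 32 in fibroblasts. The mean-profile NDR ratio, averaged over the sets of a cell type that were kept, was 0.987 to 1.12 in DCs and 0.842 to 0.942 in fibroblasts, and in single sets it reached 1.14 in LPS-treated DCs with the window from −100 to 50 bp. With replicate number as a block, 0 Hox promoters were called for TNF-α or knockdown on either measure, and pairing changed no call. Among the genes named, 34 differences changed sign and 417 did not, none of them past the limit, and the cause was not tested. For NDR level, adding the single libraries gave −0.19 at Hoxa3 and 0.26 at Hoxa4, the window from −100 to 50 bp gave 0.48 at Hoxa4, 0.22 at Hoxc11 and −0.79 at Hoxd3, and Hoxd9 was at 0.0027 with a pseudocount of 0.5 and at 0.17 with both flanks. With each set left out, the difference ranged from −0.10 to 0.60 at Hoxa3, −2.03 to 1.26 at Hoxa4, −1.25 to 3.87 at Hoxb2, −0.64 to 3.99 at Hoxb4, −0.67 to 0.34 at Hoxc11, −0.10 to 2.19 at Hoxc5, −0.55 to 0.22 at Hoxc6, −3.47 to 1.20 at Hoxd12, −0.83 to 0.99 at Hoxd3 and −0.54 to 0.53 at Hoxd9. For patterning level, adding the single libraries gave 0.948 at Hoxa3 and −3.64 at Hoxd3, the square root of occupancy gave 0.113 at Hoxa4 and −4.26 at Hoxd3, and a common template gave −0.556 at Hoxc11. With each set left out it ranged from −8.58 to 1.08 at Hoxa4, −3.37 to 21.1 at Hoxa6, −4.59 to 7.69 at Hoxc11, −10.8 to 3.02 at Hoxd12, −6.53 to 11.2 at Hoxd13 and −1.72 to 4.50 at Hoxd3. Depth limits these values, since a window of 150 bp can be empty in a thinly covered promoter. Between the sets of a cell type, Spearman's rho of NDR level over the 31 Hox promoters was 0.150 in DCs and 0.0702 in fibroblasts, against 0.525 and 0.543 over all promoters.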
